A study of Homo sapiens with 2 samples.

Results

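Tubulin isotype genes were followed in single-cell RNA profiles of MDAMB468 and CAL51, established cell lines from triple-negative breast cancers. The members are 9 listed genes, 4 of alpha tubulin (TUBA1A, TUBA1B, TUBA1C and TUBA4A) and 5 of beta tubulin (TUBB, TUBB2A, TUBB2B, TUBB3 and TUBB6), out of 30796 genes measured. They were chosen by gene family, with earlier results of these data known, and all 9 were found. The labels give no treatment, time point or genetic change for either line. Each line is 1 library made with Drop-seq, in which a cell is lysed in an oil droplet with a barcoded bead, so a barcode stands for a cell and a unique molecular identifier (UMI) for an RNA molecule.

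Microtubules are hollow polymers of heterodimers of alpha and beta tubulin. They build the mitotic spindle and the tracks of intracellular transport, and they are the target of taxanes and vinca alkaloids, drugs used in breast cancer. Vertebrates carry several genes of each class, the isotypes, whose proteins are nearly alike in the body and differ most in the acidic tail at the carboxy end, where enzymes add and remove glutamates. TUBB2B and TUBB3 are best known from neurons, while TUBB, TUBA1B and TUBA1C are expressed in most dividing cells. Cells also adjust tubulin RNA to the amount of free dimer: the factor TTC5 recognises the first residues of a tubulin chain as it leaves the ribosome and brings about decay of its RNA.

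Coding sequences are shown first, those of the tail, the region where isotypes differ most, and those of the start, which is much alike within a class. Both sets were read from 1 principal transcript per gene of GENCODE release 29 on GRCh38, on the strand of the gene. The last 54 coding bases before the stop codon encode the tail, and capitals mark the glutamate codons GAA and GAG in frame. They are shown for 7 of the 9 members:
TUBA1C: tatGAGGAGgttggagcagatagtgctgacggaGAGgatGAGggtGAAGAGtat
TUBA4A: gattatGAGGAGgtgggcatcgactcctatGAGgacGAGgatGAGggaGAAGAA
TUBB: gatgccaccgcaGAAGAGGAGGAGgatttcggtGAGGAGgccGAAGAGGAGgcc
TUBB2A: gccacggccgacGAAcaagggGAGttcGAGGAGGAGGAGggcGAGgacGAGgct
TUBB2B: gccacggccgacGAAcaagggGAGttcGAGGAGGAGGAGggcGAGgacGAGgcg
TUBB3: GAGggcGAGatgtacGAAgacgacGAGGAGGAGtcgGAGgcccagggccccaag
TUBB6: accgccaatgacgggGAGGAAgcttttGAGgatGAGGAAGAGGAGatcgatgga

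Of the 18 codons in this stretch, 6 were glutamate codons in TUBA1C, 7 in TUBA4A, TUBB3 and TUBB6, 8 in TUBB2A and TUBB2B, and 9 in TUBB. TUBB2A (chr6:3153866-3153919) and TUBB2B (chr6:3224754-3224807), both on the minus strand, were 98.1% identical. The stretch of TUBB3 (chr16:89935748-89935801, plus strand) was 46.3% identical to that of TUBB6 (chr18:12326074-12326127, plus strand).

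The first coding bases carry the other point of interest, since their first 4 codons, in capitals, encode the residues that TTC5 reads. An alpha member and 3 beta members are shown. The 30 bases of TUBA1B were the same as those of TUBA1A and TUBA1C and are spliced from 2 exons. The fourth codon is TGC in the alpha gene and ATC in the beta genes:
TUBA1B: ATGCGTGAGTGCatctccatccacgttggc
TUBB: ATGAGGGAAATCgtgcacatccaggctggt
TUBB2A: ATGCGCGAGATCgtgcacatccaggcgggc
TUBB3: ATGAGGGAGATCgtgcacatccaggccggc

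Likeness between members bears on their counts, because a read in a shared stretch cannot be placed. Whole coding sequences were 84.4% to 97.2% identical between alpha members and 80.9% to 98.2% identical between beta genes (the 5 members and TUBB4B). In the last 300 bases of the transcripts, where 3′ libraries place most reads, the longest shared stretch was 84 bases between TUBA1A and TUBA1B and at most 32 between any other pair within a class. This compares the 300-base ends with each other only and misses stretches that one end shares with bases further inside another transcript. TUBB2A has 194 bases after its stop codon and TUBB2B 490, so their nearly identical tails were not set against each other. Whether reads of these 2 genes can be told apart was not tested. TUBA1A, TUBA1B and TUBA1C lie within 147 kb on chromosome 12 (49127782 to 49274603). TUBA1B lies wholly inside its antisense gene TUBA1B-AS1. TUBB3 overlaps over 14701 bases a protein-coding gene model of its own strand (ENSG00000198211) that is not among the genes measured. The sources used here do not say whether strand was used in counting.

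The MDAMB468 library held 306 barcodes with 5501900 UMIs (median 10016.5 per barcode) and the CAL51 library 1346 barcodes with 16223444 UMIs (median 8635). From CAL51, 31 barcodes whose sequence also occurs in MDAMB468 had been left out. In MDAMB468, 64 barcodes lie 1 base from a barcode with at least 5 times their UMIs (satellite barcodes). They were kept, and no count of members called between the lines differed without them. Of the markers of the labelled cell type, ESR1 had 3 and 0 UMIs and PGR 1 and 1, ERBB2 stood at 7.09 and 16.1 CPM (UMIs per 1000000 of the line), and the epithelial genes EPCAM (867 and 283 CPM), KRT8 (764 and 919 CPM) and KRT18 (555 and 1555 CPM) were present in MDAMB468 and CAL51 respectively. EGFR, amplified in MDAMB468, stood at 459 and 12.1 CPM. Each line being a single library, no test across samples is possible. Intervals are exact 95% intervals that cover counting error only, and no difference has a replicate check.

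Between the lines, the summed tubulin level differed by less than 2-fold, and among the members the minor isotypes TUBB3 and TUBA4A had the largest differences. In MDAMB468 the 9 members together reached 2584 CPM from 14215 UMIs (interval 2541 to 2626). CAL51 reached 3092 CPM from 50165 UMIs (interval 3065 to 3119). The difference, MDAMB468 minus CAL51 on the scale of log2(CPM + 1), was -0.26. For the 15347 genes that had 20 UMIs or more, the median was -0.13, and other scalings moved that median by -0.13 to 0.09. Of the members, 3 were at least 2-fold higher in MDAMB468 on this scale (TUBA1A, TUBA4A and TUBB3), against 15.8% of those 15347 genes, and 0 were at least 2-fold higher in CAL51, against 18.6%. All of the 3 are minor isotypes by UMIs.

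TUBA1B, the main alpha tubulin of dividing cells, was the alpha gene higher in CAL51. The 4710 UMIs of MDAMB468 correspond to 856 CPM (interval 832 to 881), and the 24580 of CAL51 to 1515 CPM (interval 1496 to 1534). The level was thus 1.77 times as high in CAL51 (interval 1.72 to 1.83). TUBA1C, its close neighbour on the chromosome, reached 416 CPM in MDAMB468 (interval 399 to 433) against 353 CPM in CAL51 (interval 343 to 362), 1.18 times as high in MDAMB468 (interval 1.12 to 1.24). On the log2 scale this is 0.24, with values between 0.09 and 0.34 under the alternatives.

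TUBA1A, the alpha isotype known for its high level in developing neurons, was carried by 607 UMIs in the MDAMB468 library, or 110 CPM (interval 102 to 119). The larger CAL51 library held 631, or 38.9 CPM (interval 35.9 to 42.1). MDAMB468 was 2.84-fold above CAL51 (interval 2.53 to 3.18), the opposite order to TUBA1B. TUBA4A, an alpha isotype known from platelets, muscle and neurons, had 161 and 64 UMIs, or 29.3 CPM (interval 24.9 to 34.1) and 3.94 CPM (interval 3.04 to 5.04). The level in MDAMB468 was 7.42-fold that of CAL51 (interval 5.52 to 10.1).

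Among the beta genes TUBB, the main beta tubulin of dividing cells, stood at nearly the same level in both lines. With 5661 UMIs it reached 1029 CPM in MDAMB468 (interval 1002 to 1056), and with 17039 UMIs 1050.3 CPM in CAL51 (interval 1035 to 1066). MDAMB468 stood at 0.980 of CAL51 (interval 0.950 to 1.01). TUBB6, a beta isotype found at low level in many tissues, had 85.8 CPM in MDAMB468 (interval 78.2 to 93.9) against 105 CPM in CAL51 (interval 99.9 to 110.0). The log2 difference was -0.29, or -0.16 relative to the median of all genes.

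TUBB2A, a beta isotype of brain and other tissues, had 136 UMIs in MDAMB468 and 368 in CAL51. Its levels of 24.7 CPM (interval 20.7 to 29.2) and 22.7 CPM (interval 20.4 to 25.1) were not distinguishable at this depth. TUBB2B, nearly identical to TUBB2A in coding sequence and known from migrating neurons, was close to absent, with 5 and 14 UMIs. The ratio was 1.05 (interval 0.297 to 3.09), so any difference up to that size was not detectable.

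TUBB3, the class III beta tubulin used as a marker of neurons and studied in taxane resistance, had a log2 difference of 3.02, next to 2.61 for TUBA4A. The MDAMB468 library held 174 TUBB3 UMIs, or 31.6 CPM (interval 27.1 to 36.7), and the CAL51 library 49, or 3.02 CPM (interval 2.23 to 3.99). MDAMB468 was 10.5-fold above CAL51 (interval 7.59 to 14.7). This interval overlaps that of TUBA4A, and with each barcode weighted equally the log2 differences were 2.52 for TUBB3 and 3.04 for TUBA4A. With a pseudocount of 10 CPM they were 1.68 and 1.49. Of 306 MDAMB468 barcodes, 99 (32.4%, interval 27.1% to 37.9%) held a TUBB3 UMI, and of 1346 CAL51 barcodes 41 (3.05%, interval 2.19% to 4.11%). Thinned to 2500 UMIs per barcode, 13 of 306 (4.25%, interval 2.28% to 7.16%) and 12 of 1346 (0.892%, interval 0.461% to 1.55%) did. Neither line is a type known to lack the gene, so the CAL51 share is the lowest reference at hand, and how far free RNA contributes to it was not tested.

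**Figure D1:**
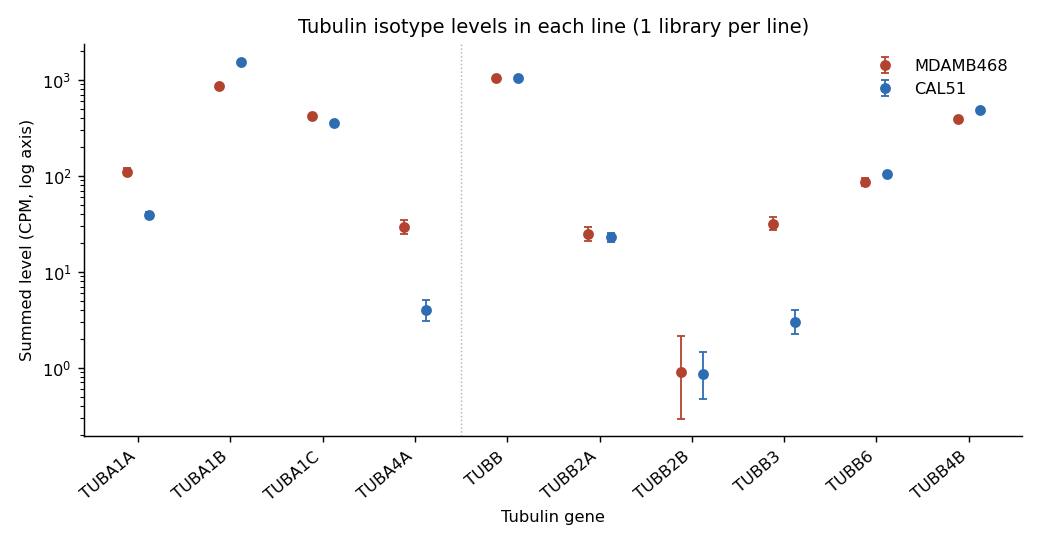
Summed level of each tubulin gene in CPM on a log axis for MDAMB468 (red) and CAL51 (blue), with exact 95% Poisson intervals; alpha genes stand left of the dotted line, and TUBB4B, not a member, is at the right. TUBA1A, TUBA4A and TUBB3 are at least 2-fold higher in MDAMB468, while TUBB stands at 1029 and 1050 CPM.

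Most neuronal markers were near 0 in both lines. Of 14 neuronal markers, 9 were found and 4 of these had at least 20 UMIs. The 9 summed to 35.3 CPM in MDAMB468 and 115 in CAL51. Of the 4, 0 were at least 2-fold higher in MDAMB468 and 2 in CAL51 (MAP2 and UCHL1). Over all genes with at least 20 UMIs the shares were 15.8% and 18.6%, and 4 genes are too few to set against them. MAP2, a dendritic microtubule-binding protein, made up most of the sum (26.9 and 94.4 CPM). ELAVL3 and GAP43 had 1 and 0 UMIs each, SNAP25 had 2 and 2, SYT1 0 and 5, and SYP, a synaptic vesicle protein, 11 and 16. UCHL1, a neuronal ubiquitin hydrolase, had 9 and 260, RBFOX3 18 and 47 (3.27 and 2.90 CPM), and INA 4 and 2.

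Because 3′ libraries count each molecule once whatever its length, UMIs of different isotypes were set side by side as shares. Reads in shared stretches may lower the counts of some isotypes more than others, which was not tested. The denominator is all 15 alpha and beta tubulin genes found, that is the members and 6 others. Among those others TUBB4B, a beta isotype of most cells, reached 389 CPM in MDAMB468 from 2142 UMIs (interval 373 to 406) and 489 CPM in CAL51 from 7928 UMIs (interval 478 to 499.6). TUBA3D, TUBA8, TUBAL3, TUBB1 and TUBB4A had 0 to 15 UMIs in a line.

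In MDAMB468 the leading gene was TUBB with 34.6% of tubulin UMIs (interval 33.9% to 35.3%), followed by TUBA1B with 28.8% (interval 28.1% to 29.5%), TUBA1C with 13.99% (interval 13.5% to 14.5%) and TUBB4B with 13.1% (interval 12.6% to 13.6%). The intervals of TUBA1C and TUBB4B overlap slightly. TUBA1A held 3.71% and TUBB6 2.88%. TUBB3 (1.06%), TUBA4A (0.984%) and TUBB2A (0.831%) followed with intervals that overlap between neighbours.

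In CAL51 the order was led by TUBA1B with 42.3% (interval 41.9% to 42.7%), ahead of TUBB with 29.3% (interval 28.95% to 29.69%). TUBB4B with 13.6% (interval 13.4% to 13.9%) stood above TUBA1C with 9.84% (interval 9.60% to 10.1%). TUBB6 held 2.93%, TUBA1A 1.09% and TUBB2A 0.633%, while TUBA4A and TUBB3 held 0.110% and 0.0843%. By rank among all genes with a UMI, TUBB was at 142 of 23850 in MDAMB468 and 138 of 27677 in CAL51, and TUBA1B at 180 and 80.

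The share of the leading gene within its class stood further apart between the lines in alpha than in beta tubulin RNA. Within the alpha class TUBA1B held 60.6% in MDAMB468 (interval 59.5% to 61.7%) and 79.3% in CAL51 (interval 78.8% to 79.7%), and TUBA1A 7.81% and 2.04%. Within the beta class TUBB held 65.9% (interval 64.9% to 66.9%) and 62.8% (interval 62.3% to 63.4%). Alpha genes together made up 47.5% of all tubulin UMIs in MDAMB468 (interval 46.7% to 48.3%) and 53.3% in CAL51 (interval 52.9% to 53.8%). At least 50 tubulin UMIs were held by 99 of 306 barcodes in MDAMB468 and 379 of 1346 in CAL51. These were deep barcodes, with medians of 28642 and 19424 UMIs. Their alpha share had a median of 47.6% in MDAMB468 (quartiles 43.1% and 50.7%). In CAL51 the median was 53.3% (quartiles 49.1% and 58.3%), so these barcodes of the lines overlapped.

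**Figure D2:**
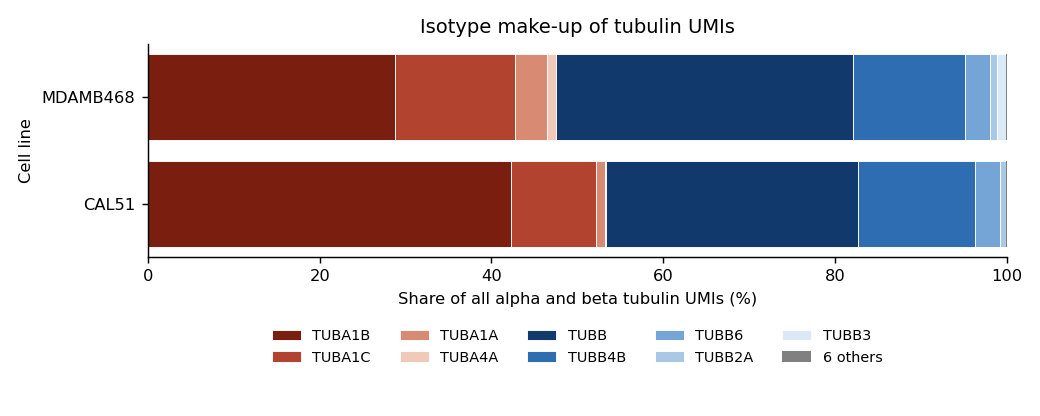
Share of all alpha and beta tubulin UMIs held by each gene in each line, alpha genes in red shades and beta genes in blue shades. TUBA1B takes 42.3% in CAL51 and 28.8% in MDAMB468, and alpha genes together 53.3% and 47.5%.

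Most of the abundant isotypes were higher in barcodes rich in G2 and M phase RNA. Barcodes of each line were ranked by their UMIs on 53 genes of G2 and M phase after thinning to 2500 UMIs. The list holds no tubulin, since TUBB4B, a gene of the list, was taken out of it. The barcodes were then split into a low, a middle and a high tercile. These held 102 barcodes each in MDAMB468, and 448, 450 and 448 in CAL51. A tercile is a range of a score and not a cell type, and 12 and 15 barcodes in MDAMB468, and 59 and 31 in CAL51, had the same score as the last barcode of the low or the first of the high tercile. Median depth per barcode was 10384.5 UMIs in the low and 10205 in the high tercile of MDAMB468, and 7572 and 9525 in CAL51. The 9 members summed to 1836 CPM in the low and 3167 in the high tercile of MDAMB468, 1.72-fold higher (interval 1.65 to 1.80). In CAL51 they summed to 2424 and 3517 CPM, 1.45-fold higher (interval 1.42 to 1.48).

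In MDAMB468, 4 members were at least 1.5-fold higher in the high than in the low tercile, against 7.97% of 6461 genes with at least 100 UMIs. In CAL51 1 member was, against 3.02% of 9740 genes. The minimum of 100 UMIs was met by 8 members in MDAMB468 and 6 in CAL51. TUBA1C had the highest ratio of these members in both lines. It rose from 233 over 375 to 603 CPM in MDAMB468, 2.59-fold (interval 2.30 to 2.91), and from 243 over 337 to 455 CPM in CAL51, 1.87-fold (interval 1.75 to 2.01). Its low terciles overlapped between the lines (intervals 210 to 258 and 229 to 257 CPM), and its high terciles did not (569 to 638 and 438 to 473 CPM).

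TUBA1B stood at 606, 869 and 1045 CPM in the low, middle and high terciles of MDAMB468, a 1.72-fold ratio of high to low (interval 1.60 to 1.86). In CAL51 it stood at 1153, 1598 and 1728 CPM, with a ratio of 1.498 (interval 1.45 to 1.55), just under the threshold. The low tercile of CAL51 (interval 1123 to 1184 CPM) was above the high tercile of MDAMB468 (interval 999.95 to 1091 CPM).

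TUBB stood at 763, 1053 and 1219 CPM in MDAMB468, a ratio of 1.60 (interval 1.49 to 1.71), and at 856, 1099 and 1160 CPM in CAL51, a ratio of 1.36 (interval 1.30 to 1.41). TUBB2A, the fourth member past the threshold in MDAMB468, rested on 30 and 63 UMIs (1.69-fold, interval 1.08 to 2.70) and did not pass it in CAL51 (1.18-fold, interval 0.906 to 1.55). Under other settings ranked on the same list it missed the threshold in MDAMB468 (down to 1.33) or passed it in CAL51 (up to 1.57), so the line in which it passes is not settled. Over 5 thinning draws TUBA1B, TUBA1C and TUBB passed in MDAMB468 every time, while TUBB2A ran from 1.43 to 1.69, TUBB6 from 1.28 to 1.53 and TUBA4A from 1.06 to 1.59. TUBB4B, not a member, had higher ratios than TUBA1C, at 2.60 (interval 2.30 to 2.94) and 2.05 (interval 1.93 to 2.17), with overlapping intervals in MDAMB468. TUBB6 had ratios of 1.28 (interval 1.0005 to 1.65) and 1.23 (interval 1.09 to 1.39).

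The isotypes at least 2-fold apart between the lines had other courses over the terciles. TUBB3 had 30.8, 35.1 and 28.8 CPM over the terciles of MDAMB468 (ratio 0.936, interval 0.628 to 1.40), and TUBA4A had 24.5, 36.2 and 26.3 CPM (ratio 1.07, interval 0.695 to 1.67). In CAL51 they stood at 1.79 to 4.63 CPM and 3.06 to 4.47 CPM, below every tercile of MDAMB468. TUBA1A had 92.4, 108 and 127 CPM in MDAMB468 (ratio 1.37, interval 1.11 to 1.69) but 48.6, 41.3 and 28.7 CPM in CAL51 (ratio 0.591, interval 0.481 to 0.723). Without satellite barcodes the ratio in MDAMB468 was 1.12. The alpha share of tubulin UMIs was 46.6% in the low and 48.4% in the high tercile of MDAMB468, and 52.7% and 53.0% in CAL51.

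When barcodes were ranked by 43 S phase genes instead, 0 of the 8 members with at least 100 UMIs were at least 1.5-fold higher in the high tercile of MDAMB468 (background 5.64%) and 0 of 6 in CAL51 (background 2.55%). TUBA1C, in contrast to its course over G2 and M phase UMIs, had ratios of 0.597 and 0.792.

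**Figure D3:**
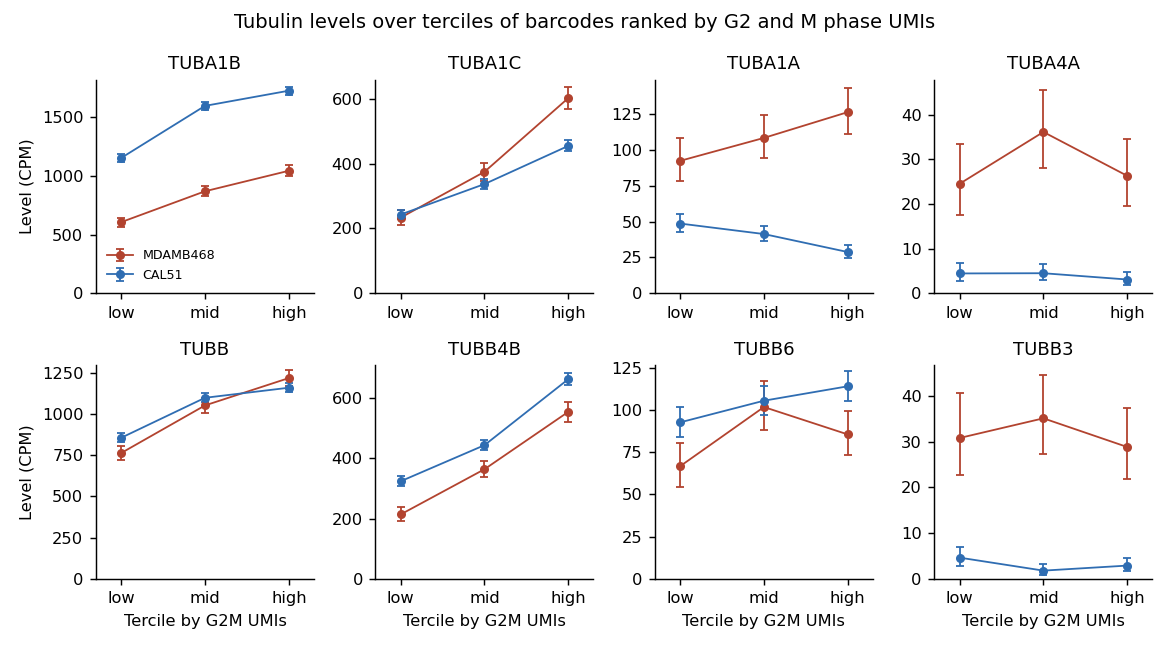
Level in CPM, each panel with its own axis from 0, over the low, middle and high tercile of barcodes by G2 and M phase UMIs in MDAMB468 (red) and CAL51 (blue), with exact 95% Poisson intervals. TUBA1B, TUBA1C, TUBB and TUBB4B are higher in the high terciles of both lines, TUBA1A is lower there in CAL51 (28.7 against 48.6 CPM), and TUBA4A and TUBB3 are higher in MDAMB468 in every tercile.

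Spread between barcodes was measured at equal depth as the Fano factor, the variance of UMIs over their mean, which is 1 for pure counting. Among members with a mean of at least 0.1 UMIs at 2500 UMIs per barcode, the median was 1.31 in MDAMB468 (5 members) and 1.24 in CAL51 (4 members). Over all genes with such a mean it was 1.05 (3924 genes) and 1.07 (4243 genes). TUBA1C had the highest factor of these members in MDAMB468, at 1.45 (mean 0.958 UMIs, place 120 of 3924 from the top). In CAL51 it was TUBA1B, at 1.502 (mean 3.66 UMIs, place 120 of 4243). Higher means raise the factor for the same relative spread, and the order changed when the factor minus 1 was divided by the mean. By that measure TUBB6 (0.844) and TUBA1A (0.613) stood above TUBA1C (0.473) in MDAMB468. In CAL51, TUBA1C (0.318) and TUBB6 (0.252) stood above TUBA1B (0.137).

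TUBB, with a mean above that of TUBA1C in both lines, had a factor of 1.31 at a mean of 2.33 UMIs in MDAMB468 and 1.23 at a mean of 2.56 in CAL51. TUBB6 in CAL51 was at 1.06, near the median of all genes. TUBA1A in CAL51 fell just below the limit, with a mean of 0.0973 UMIs and a factor of 1.25. Its UMIs were gathered in few barcodes: the 10 barcodes richest in TUBA1A held 131 of its 631 UMIs (20.8%), up to 35 in a barcode, while the 10 deepest barcodes held 5.51% of all UMIs. For TUBA1B the corresponding share in CAL51 was 6.42%, and for TUBB2A, with fewer UMIs than TUBA1A, it was 11.7%. Since the 10 barcodes are picked on the gene itself, a gene with few UMIs has a high share. TUBA4A had 31.25% of 64 UMIs and TUBB3 36.7% of 49. A TUBA1A UMI was found in 286 of 1346 CAL51 barcodes (21.2%, interval 19.1% to 23.5%) and in 176 of 306 MDAMB468 barcodes (57.5%, interval 51.8% to 63.1%).

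**Figure D4:**
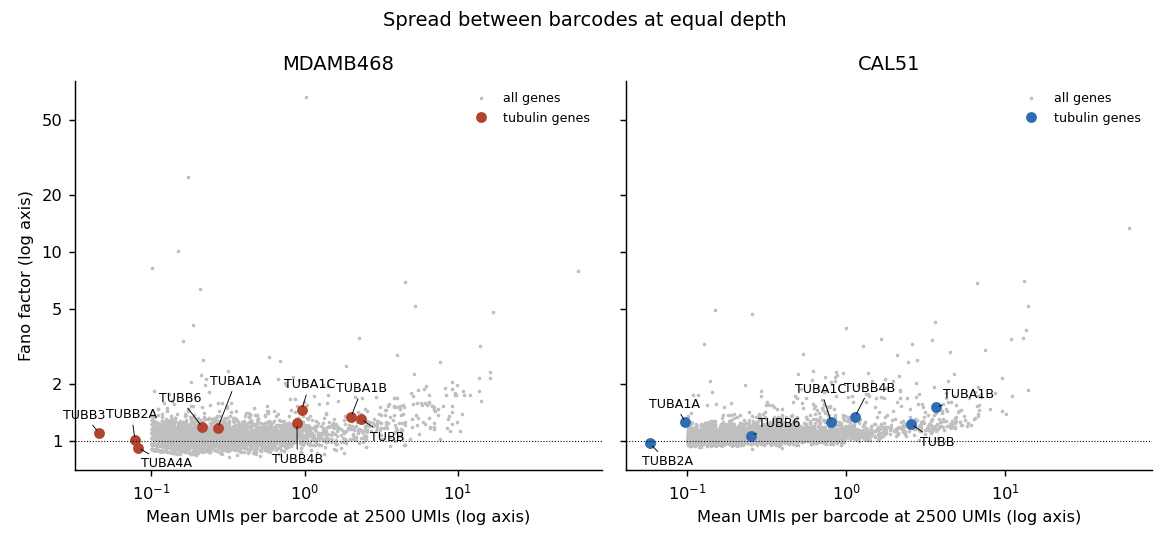
Fano factor against mean UMIs per barcode at 2500 UMIs, both on log axes, for all genes with a mean of at least 0.1 (grey) and for tubulin genes (coloured), with the counting level of 1 dotted. TUBA1C at 1.45 in MDAMB468 and TUBA1B at 1.502 in CAL51 are the highest members above that mean, and TUBA1A in CAL51 is at 1.25 on a low mean.

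The genes whose UMIs were most alike to the summed members over barcodes included several cell cycle genes. At 2500 UMIs per barcode, Pearson's r of log2(UMIs + 1) in MDAMB468 (306 barcodes) was highest for CKS2 (0.32), the actin regulator CFL1 (0.29), the chaperone HSPA8 (0.29), CCNB1 (0.28) and CDC20 (0.27). In CAL51 (1346 barcodes) it was highest for HMGB2 (0.29), HMGN2 (0.29), H2AZ1 (0.29), TOP2A (0.27) and MKI67 (0.27). The median over all genes was 0.00 and 0.01, and the lowest r was -0.24 in MDAMB468 and -0.22 in CAL51. These barcodes share a library, the counts are sparse and the values are a description.

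The closest genes of single members were looked at after these values were seen, at 5000 UMIs per barcode. TUBA1B in MDAMB468 was closest to CKS2 (r 0.34, 212 barcodes) and TUBB in CAL51 to TOP2A (a weak r of 0.21, 1071 barcodes). CKS2 and TOP2A also stand among the genes closest to the sum in those lines. Nothing is read from this, since TUBA1B and TUBB held 33.1% and 34.0% of the member UMIs in those lines. TUBA1B in CAL51 was closest to the chromatin gene HMGN2 (r 0.45, 1071 barcodes), TUBA1C in MDAMB468 to ARL6IP1 (0.37, 212 barcodes) and in CAL51 to the mitotic cyclin CCNB1 (0.29), and TUBB in MDAMB468 to UBE2C (0.36). TUBA1A in CAL51 was closest to GPC3 and COL2A1, both at a weak r of 0.25, from which nothing is read. Between members, r at 2500 UMIs was 0.28 for TUBA1B with TUBB in CAL51 and 0.14 in MDAMB468.

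Genes that act on tubulin were counted in lists, to be read against the 15.8% of all genes at least 2-fold higher in MDAMB468 and the 18.6% in CAL51. Of 22 genes for the folding of tubulin (the chaperonin CCT, prefoldin and the TBC cofactors), 1 was at least 2-fold higher in MDAMB468 and 0 in CAL51, and the median log2 difference of -0.12 was close to that of all genes. The 1 was CCT6A, a chaperonin subunit (3392 and 948 CPM, 3.58-fold, interval 3.502 to 3.66). TBCA, which holds folded beta tubulin, was lowest (226 and 393 CPM).

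Of 22 genes for nucleation, 0 were at least 2-fold higher in MDAMB468 and 4 in CAL51 (18.2%, near the share of all genes), with a median log2 difference of -0.48. The 4, named after their values were seen, were NEDD1, MZT1, CDK5RAP2 and HAUS1, and CDK5RAP2, which anchors the gamma tubulin complex at centrosomes, was lowest (55.4 and 125 CPM). HAUS7, of the augmin complex, was highest (33.4 and 18.3 CPM). TUBG1, the main gamma tubulin, also named after its values were seen, stood at 62.5 CPM (interval 56.1 to 69.5) and 90.5 CPM (interval 86.0 to 95.3).

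Of 27 microtubule-binding proteins with at least 20 UMIs, 1 was at least 2-fold higher in MDAMB468 (3.70%) and 5 in CAL51 (18.5%, near the share of all genes), with a median of -0.42. MAP7, which recruits kinesin, was highest (78.5 and 21.0 CPM, 3.74-fold, interval 3.23 to 4.32). MAP1A, a structural protein of neuronal microtubules, was lowest on the log2(CPM + 1) scale (5 and 583 UMIs, 0.909 and 35.9 CPM, log2 difference -4.27). MAPRE2, an end-binding protein named after its values were seen, had 1 and 335 UMIs (log2 difference -4.20) and a lower plain ratio, 0.00880 (interval 0.000222 to 0.0494) against 0.0253 (interval 0.00818 to 0.0594) for MAP1A. Of 16 modifying enzymes and their partners with at least 20 UMIs, 2 passed 2-fold in MDAMB468 (12.5%) and 4 in CAL51 (against 18.6% of all genes), with a median of -0.17. TTLL7, which adds glutamates to beta tubulin tails, was highest (24.2 and 7.83 CPM), and ATAT1, the alpha tubulin acetyltransferase, was lowest (7.45 and 20.4 CPM).

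Of the 4 genes of tubulin RNA autoregulation, 0 passed 2-fold in MDAMB468 and 1 in CAL51. SCAPER, which links TTC5 to RNA decay, was lowest (18.5 and 46.5 CPM), and CNOT11, the deadenylase subunit it binds, was highest (16.7 and 12.7 CPM). TTC5 itself, singled out for its role, had 67 and 334 UMIs (12.2 and 20.6 CPM, log2 difference -0.71).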

How the data were processed

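The deposited matrix holds UMI counts per gene and barcode as whole numbers, with no normalisation visible. STARsolo is named in the submitters' processing notes. Version, settings, genome build, annotation and barcode selection: not given in the sources used here. Barcode names and gene identifiers were taken as other deposited labels, with no score or unit. The name prefix assigned each barcode to its line, and CAL51 barcodes with a sequence also found under MDAMB468 were left out. Gene symbols were read from the reference name table (23687 of 30796 identifiers had one), positions and sequences from GENCODE release 29. Some sequences are not reported here.

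The members and lists were chosen with earlier results of these data known. Named genes are the members, other alpha and beta tubulins with at least 20 UMIs, the extremes of each list, the 5 genes most alike to the summed members in each line, and marker genes of the lines. UMIs were summed per line and scaled to CPM, the count per 1000000 UMIs of the line, with a pseudocount of 1 CPM for log2 values. Intervals are exact Poisson, Clopper-Pearson, or for ratios conditional on the total. Doublets were not removed. Thinning drew UMIs without replacement, and the scripts were tested on simulated data. TMM factors were computed with edgeR 4.0.16 in R 4.3.3. All else used Python 3.11.15 with Biopython 1.88, matplotlib 3.10.9, pandas 2.3.3, scipy 1.17.1 and numpy 2.4.6. Alternatives covered barcode sets, scaling, pseudocount, weighting, denominators, thinning and ranking.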

Additional observations from a re-analysis of the deposited data

Results flagged for a closer look

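TUBA1A was higher in the high than in the low G2 and M phase tercile of MDAMB468 and lower in that of CAL51. Its ratio of high to low tercile was 1.37 in MDAMB468 (interval 1.11 to 1.69) and 0.591 in CAL51 (interval 0.481 to 0.723), each interval on its own side of 1. These intervals cover counting error only and leave out that the TUBA1A UMIs of CAL51 were gathered in few barcodes. The difference between the lines was not tested. Over the other settings ranked on G2 and M phase genes the ratio ran from 1.12 to 1.40 in MDAMB468 and from 0.510 to 0.690 in CAL51. The lowest values in MDAMB468 were 1.12 without satellite barcodes and 1.16 among barcodes with at least 5000 UMIs. No interval was computed for these, so the rise in MDAMB468 is not settled.

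The 31 CAL51 barcodes left out of every comparison held 393 UMIs of the 9 members (2906 CPM). TUBA1A stood there at 155 CPM (21 UMIs), against 38.9 CPM in the other CAL51 barcodes and 110 CPM in MDAMB468, and TUBA4A at 37.0 CPM on 5 UMIs. EGFR stood there at 370 CPM (50 UMIs), against 12.1 in the other CAL51 barcodes and 459 in MDAMB468. In the same order, EPCAM had 673, 283 and 867 CPM, KRT8 673, 919 and 764, and KRT18 1501, 1555 and 555. How far RNA of MDAMB468 contributes to these barcodes was not tested.

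Tubulin pseudogenes, which enter none of the shares above, held 396 UMIs in MDAMB468 and 371 in CAL51 (71.98 and 22.9 CPM). TUBA5P, a transcribed pseudogene of the alpha class, made up most of them in MDAMB468, with 232 UMIs there and 40 in CAL51, 17.1-fold higher in MDAMB468 (interval 12.2 to 24.6). TUBBP1 had 106 and 213 UMIs. How reads were divided between these and the members was not tested.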

How the results depend on the processing

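Counts of members at least 2-fold apart were 3 and 0 in every setting, except 4 and 0 with each barcode weighted equally, where TUBB2B passed on 19 UMIs. The summed log2 difference of -0.26 was -0.39 with TMM factors, -0.40 with median of ratios size factors and -0.16 with the total without mitochondrial and ribosomal protein genes. The log2 difference of TUBB had no fixed direction (-0.17 to 0.07). The alpha share was 46.7% in MDAMB468 and 52.4% in CAL51 with barcodes weighted equally, and 54.6% and 61.8% over the 9 members alone, since TUBB4B then leaves the denominator. The median Fano factor in MDAMB468 was 1.17 at 5000 UMIs, 1.17 among barcodes with at least 5000 UMIs and 1.17 over all members with a UMI, and in CAL51 it was 1.55 at 5000 UMIs and 1.06 over all members with a UMI. These medians move with the thinning draw: over 5 draws, 4 of them added after seeing the data, they ran from 1.22 to 1.33 in MDAMB468 and stood at 1.24 in CAL51 in each at 2500 UMIs, and from 1.17 to 1.43 and 1.42 to 1.55 at 5000 UMIs. The count of members 1.5-fold higher in the high tercile of MDAMB468 (4) was 3 among barcodes with at least 5000 UMIs and between narrower groups at the ends of the ranking, and 5 in 1 other draw. Ranked at 1000 UMIs, the count was again 4, with TUBB at 1.43 and TUBB2A at 1.33 below the threshold and TUBB6 at 1.57 above it, and TUBB2B, with 5 UMIs in all and none in the low tercile, counted as above. The count in CAL51 (1) was 2 with all CAL51 barcodes, 3 between those narrower groups, 2 when ranked at 1000 UMIs and 2 in 2 of the 4 other draws, where TUBB2B, with 14 UMIs in all, was the added member. Ranked on S phase genes, the count in MDAMB468 was 0, and ratios of high to low fell below 1 for TUBA1A (0.584), TUBA1B (0.775), TUBA1C (0.597), TUBB2A (0.612) and TUBB6 (0.830) in MDAMB468 and for TUBA1C (0.792) and TUBB6 (0.996) in CAL51. Ratios whose interval had included 1 also crossed it, for TUBA4A in MDAMB468 (0.979) and TUBB2A (0.999977) and TUBB3 (1.13) in CAL51. The count there was 1, from TUBB2B with 4 and 6 UMIs; that ranking orders barcodes by another phase. The cause of the other changes was not tested. Depth limits TUBB2B most. No paired analysis was possible because each line has 1 library.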
